A study of Mus musculus with 35 samples.

Results

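The collagen and laminin matrix genes were taken as every gene name in the deposited peak lists that begins with Col, a number, a and a number, or with Lama, Lamb or Lamc and a digit. The rule found 56 of 23592 gene names, and 3153 of 1212511 peaks carried one of them. Of the 56, 55 encode matrix chains: 11 fibrillar collagens, 9 network collagens, 9 collagens associated with fibrils (FACIT), 4 transmembrane collagens, 11 multiplexin, beaded-filament, anchoring and other collagens, and 11 laminins. The remaining name, Col4a3bp, encodes a ceramide transfer protein and is no matrix chain; it stayed in every count, since the rule finds it.

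The study mapped chromatin marks and DNA-binding proteins by ChIP-seq in mouse pre-B cell progenitors grown adherent to stroma. IKDN cells came from IKDN CD2 Cre mice, in which a dominant-negative form of the transcription factor Ikaros is switched on by a Cre recombinase under the CD2 promoter, active in lymphoid cells; WT cells came from wild-type mice and carried neither allele. Both were used at passages 3 to 8; the labels state no age, and do not say whether a library pools animals or whether stromal cells entered the chromatin. Of 35 libraries, 33 had a peak list (17 IKDN and 16 WT), with 2783 to 86562 peaks in the IKDN lists and 3491 to 82216 in the WT lists. Of 12 pre-B markers, 9 in IKDN and 11 in WT had H3K27ac peaks carrying their name. Cd79a and Rag1 had none in IKDN, and Vpreb1 none in either list, though a nearby peak can carry a neighbour's name. By the size rule given below, 0 of the 11 with a peak were higher in IKDN and 6 lower, against 21.9% and 16.8% over all gene names. Their summed H3K27ac was 134 kb in IKDN and 232 kb in WT. Each genotype had 1 library per target, so no difference below has a replicate check, a standard deviation or a test, and every comparison is one of sizes between these libraries.

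Collagens are triple-helical proteins of the extracellular matrix; the fibrillar ones build the fibres of connective tissue, and type IV collagen builds the sheet of the basement membrane. Laminins are trimers of an alpha, a beta and a gamma chain, secreted by epithelial, endothelial and stromal cells, that bind integrins on the cell surface and form part of the bone marrow niche. At such genes, trimethylation of histone H3 at lysine 27 (H3K27me3) marks Polycomb repression, H3K4me3 marks start sites, H3K4me1, H3K4me2 and H3K27 acetylation (H3K27ac) mark regulatory elements, and H3K36me3 and RNA polymerase II (RNAPII, labelled RpIIS5) lie over transcribed genes.

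For each target the base pairs covered by the peaks named to a gene were summed. A gene counted as higher in IKDN where its cover exceeded that of WT by 1000 bp or more and was 1.5 times it or more, and as lower in the reverse case. Peaks were named in the deposited lists by the nearest start site, so a peak in the body of a long gene can carry a neighbour's name; cover within the annotated gene body, whatever the name, is therefore given for named genes where the body values turn the direction or miss the size rule. In pools of cells, fewer cells with a mark and less of the mark per cell cannot be told apart.

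The matrix genes carried more H3K27me3 in IKDN. Of the 47 with a peak, 27 were higher and 6 lower in IKDN, while over all gene names 29.6% were higher and 33.3% lower. The members' summed cover was 804 kb in IKDN and 435 kb in WT, a ratio of 1.85 against 1.17 over all gene names. Their median difference was 4191 bp, against -448 bp over all gene names. Among fibrillar collagens 8 of the 9 with a peak were higher and 0 lower, with 170.2 kb in IKDN and 52.1 kb in WT. All 4 transmembrane collagens were higher, as were 7 of the 11 multiplexin, beaded-filament, anchoring and other collagens. Among laminins 1 of the 8 with a peak was higher.

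The fibre chains Col1a1 and Col5a1 were among the members with the most added H3K27me3. Col1a1, a chain of the main fibre of bone and skin, had 44.4 kb in IKDN and 16.2 kb in WT. Its partner Col1a2 had 3.51 kb in IKDN and 0.5 kb in WT by name, and 0.874 kb and 0 within its body, a difference under the size rule. Col5a1, which helps start fibre assembly, had 44.1 kb in IKDN and 9.02 kb in WT. Inside the Col1a1 body the order held, with 11.7 kb in IKDN and 4.14 kb in WT over Col1a1 (69.6% and 24.6% of the gene). Col5a3, another type V chain, had H3K27me3 over 58.3% of its body in IKDN and 5.14% in WT, while Col5a2 had 2.54 kb in IKDN and 2.51 kb in WT by name. Col3a1, the type III fibre chain, had no H3K27me3 peak in either list.

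Col23a1, a membrane-anchored collagen, had 43.1 kb of H3K27me3 in IKDN and 8.13 kb in WT. The beaded-filament chains of type VI collagen, which lie around cells in most connective tissue, followed the same direction. Col6a2 had 36.1 kb in IKDN and 3.97 kb in WT by name, and 3.86 kb and 1.07 kb within its body. Col6a3 had 25.1 kb in IKDN by name, 10.7 kb within its body, and none in WT by either count. Col6a1 had 34.6 kb in IKDN and 8.5 kb in WT by name, but neither list had a peak inside its own 17.3 kb body, so that cover lay beside the gene. Col4a2 of the basement membrane had 8.73 kb in IKDN and 0 in WT by name, and 6.5 kb and 1.26 kb within its body. The H3K27me3 peak over the start it shares with Col4a1 was named to Col4a2 in IKDN and to Col4a1 in WT.

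Lower H3K27me3 in IKDN was found at laminins and collagens. Lama3, an alpha chain of epithelial laminin, had 15.2 kb in IKDN and 23.2 kb in WT. Lamb1, the beta chain of the laminins most widely found in basement membranes, had 0 in IKDN and 2.8 kb in WT. Not every laminin had that direction. Lama5 was higher, with 17.7 kb in IKDN and 7.85 kb in WT. Lama4 had 9.79 kb in IKDN and 8.84 kb in WT, and Lamc3 had 17.9 kb in both; neither passed the size rule. Lamb2 had 0 in IKDN and 0.63 kb in WT, Lama1 had 0 and 0.5 kb, and Lamb3, Lamc1 and, by name, Lama2 had none in either. The lower collagens were Col4a5 (14 kb in IKDN, 25.4 kb in WT), Col6a4 (4.18 kb and 13.5 kb) and Col22a1 (0 and 1.68 kb by name, none within its body in either).

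**Figure D1:**
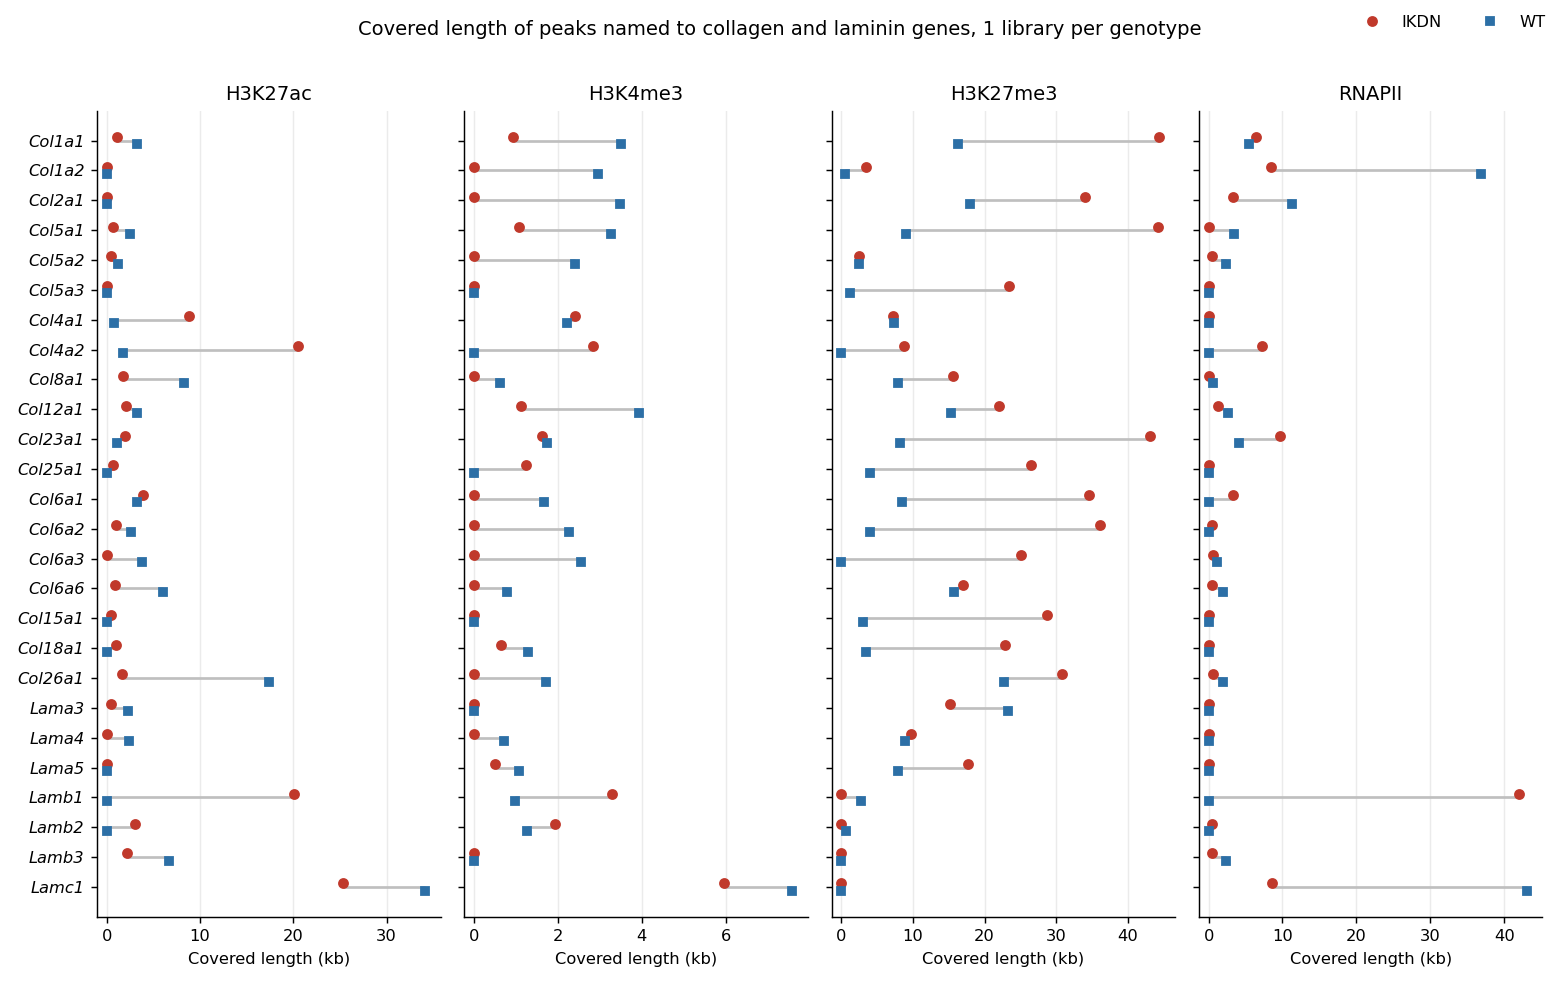
Covered length in kb (x axes, 1 scale per target) of the peaks named to 26 collagen and laminin genes (rows) for H3K27ac, H3K4me3, H3K27me3 and RNAPII; red circles are the IKDN library, blue squares the WT library, and a grey line joins the 2 values of a gene. H3K27me3 circles of Col1a1, Col5a1 and Col23a1 lie at 43.1 kb or more, while for Lamb1 the circles stand apart to the right in H3K27ac (20.1 kb) and RNAPII (41.9 kb).

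H3K4me3 covered less of the matrix genes in IKDN. Of 33 members with a peak, 3 were higher and 11 lower, against 5.13% higher and 10.8% lower over all gene names. Fibrillar collagens made up 6 of the 11, and 0 fibrillar collagens were higher. Col2a1, the cartilage fibre chain, had 0 in IKDN and 3.48 kb in WT, Col1a2 had 0 and 2.96 kb, Col5a2 had 0 and 2.41 kb, Col1a1 had 0.933 kb and 3.5 kb, and Col12a1, a chain on the fibre surface, had 1.13 kb and 3.92 kb. All 3 widespread type VI chains were lower: Col6a1 had 0 in IKDN and 1.68 kb in WT, Col6a2 had 0 and 2.27 kb, and Col6a3 had 0 and 2.55 kb. By name, 3 genes were higher. Col4a2 had 2.83 kb in IKDN and 0 in WT by name, and 3.54 kb and 1.03 kb within its body. Lamb1 had 3.29 kb in IKDN and 0.99 kb in WT, and Col25a1, a membrane collagen of nerve, had 1.23 kb and 0. Lamc1, the gamma chain shared by most laminins, had the most H3K4me3 of any member in both lists, 5.95 kb in IKDN and 7.58 kb in WT.

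Counted at start sites, 16 members in IKDN and 26 in WT had an H3K4me3 peak within 1000 bp. Of the 26 start-marked in WT, 12 had none in IKDN (46.2%), against 5.4% over all gene names. Genes with both H3K4me3 and H3K27me3 at the start numbered 12 in IKDN and 20 in WT, and genes with H3K27me3 alone numbered 28 in IKDN and 16 in WT. Of the 20 with both marks in WT, 9 kept H3K27me3 alone in IKDN (45%), against 13.2% over all gene names. They were Col2a1, Col5a2, Col8a1, Col9a2, Col11a1, Col12a1, Col14a1, Col6a2 and Lama4. Col1a2 and Col6a3 had H3K27me3 alone in IKDN and H3K4me3 alone in WT, and Col6a1 had neither mark at its start in IKDN. Lamb1 was the reverse case, with H3K4me3 alone in IKDN and both marks in WT. Lamc1 and Lamb2, a beta chain of nerve, muscle and kidney basement membranes, had H3K4me3 alone in both genotypes.

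**Figure D2:**
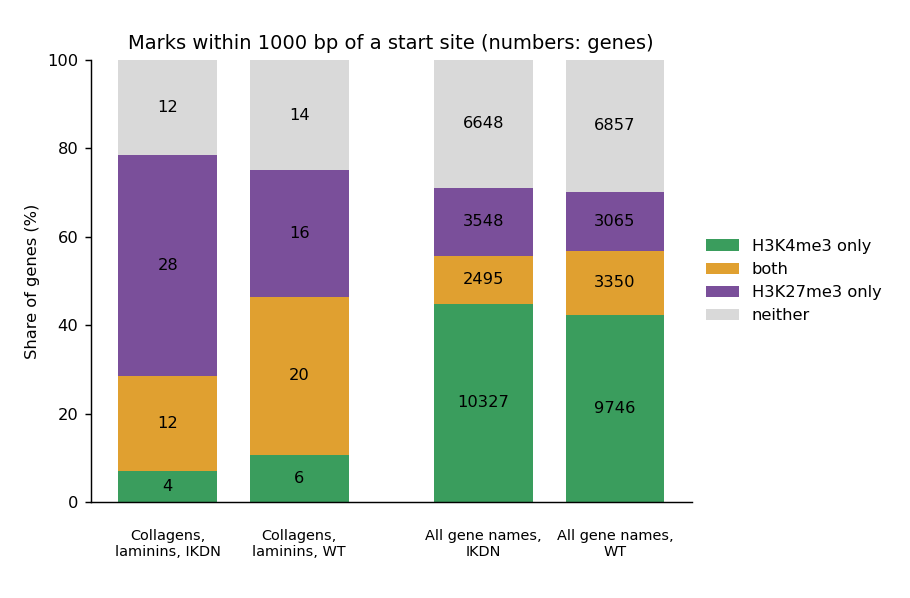
Share of genes in percent (y axis) by the marks found within 1000 bp of a start site, for the 56 collagen and laminin genes and for all 23018 gene names with a start site, IKDN left of WT in each pair; numbers in the bars are genes. The purple block, H3K27me3 alone, holds 28 of the 56 in IKDN and 16 in WT, while over all gene names it holds 3548 in IKDN and 3065 in WT.

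The H3K4me3 difference was found at weak WT peaks and between unequal libraries. In 23 of the 26 genes the WT peak scored below the median of the WT list, and all 12 without an IKDN peak were among those 23 (52.2%); over all gene names with such a WT peak 23.4% had none in IKDN. Peak scores were whole multiples of 0.936 in the IKDN list and of 0.337 in the WT list, while the scale of the scores is not given in the sources used here. The labels give the IKDN H3K4me3 library the antibody number of the H3K4me1 libraries and the WT library another. With only the top-scored 50% of each list, or with summed scores, the Lamb1 call remained and the other 13 were lost.

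Markers of stromal fibroblasts were also lower for H3K4me3. Of 14 such markers, 10 had an H3K4me3 peak, and of these 0 were higher and 7 lower, against 5.13% and 10.8% over all gene names, with 7.35 kb in IKDN and 28.7 kb in WT; Pdgfra, Pdgfrb, Prrx1 and Fbn1 were at 0 in IKDN and had peaks in WT. For H3K27me3, 6 of the 13 with a peak were higher and 4 lower, against 29.6% and 33.3% over all gene names, with 496 kb in IKDN and 185 kb in WT. For H3K27ac, 4 of the 12 with a peak were higher and 2 lower, against 21.9% and 16.8%. H3K36me3 was at 0 for 9 of the 14 in IKDN and for 13 in WT. Of the 5 with an H3K36me3 peak, 4 were higher and 0 lower, against 30.5% and 10.1%. H3K4me1 was higher at 5 of 11 and lower at 1, against 21.2% and 19.6%. RNAPII was higher at 4 of 11 and lower at 2, against 27.2% and 24.8%. MED1 was higher at 4 of 7 and lower at 0, against 43.1% and 2.93%. The lower H3K4me3 of these markers was thus not shared by these targets. The part of stromal cells in the collagen results was not tested.

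Sequence just upstream of the start is shown for 4 genes whose start had no H3K4me3 in IKDN and some in WT and whose window holds no other annotated gene, each 250 bases, 5′ to 3′, from RefSeq (build GRCm38.p6). Capitals mark any of 7 fixed motifs, searched on both strands: GGAATG (TEAD), TGGGAA (Ikaros core), CGGAAG (ETS core), TAATTA (LIM homeodomain), CAGCTG (E-box), AGATAA (erythroid factors of the GATA family) and the palindromic EBF motif. Col9a2 alone of the 4 holds any, an overlapping TGGGAA on the opposite strand and CAGCTG, at 85 and 81 bases before the start.
Col1a2, chr6:4505368-4505617, plus strand: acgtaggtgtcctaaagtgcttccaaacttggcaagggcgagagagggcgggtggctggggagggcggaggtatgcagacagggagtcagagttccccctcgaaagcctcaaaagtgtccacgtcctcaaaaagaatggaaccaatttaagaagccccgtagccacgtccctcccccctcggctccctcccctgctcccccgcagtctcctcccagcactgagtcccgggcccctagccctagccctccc
Col6a1, chr10:76726045-76726294, minus strand: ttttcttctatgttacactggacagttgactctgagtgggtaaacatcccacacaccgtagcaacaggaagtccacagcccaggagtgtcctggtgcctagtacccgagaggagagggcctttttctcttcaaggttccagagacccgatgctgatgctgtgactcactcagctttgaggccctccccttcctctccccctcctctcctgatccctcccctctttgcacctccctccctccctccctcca
Col9a2, chr4:121039316-121039565, plus strand: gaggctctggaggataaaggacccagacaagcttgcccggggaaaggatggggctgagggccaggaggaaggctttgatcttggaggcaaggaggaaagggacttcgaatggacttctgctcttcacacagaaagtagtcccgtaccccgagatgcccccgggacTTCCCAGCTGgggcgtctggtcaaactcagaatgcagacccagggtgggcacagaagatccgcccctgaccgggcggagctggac
Col8a1, chr16:57754738-57754987, minus strand: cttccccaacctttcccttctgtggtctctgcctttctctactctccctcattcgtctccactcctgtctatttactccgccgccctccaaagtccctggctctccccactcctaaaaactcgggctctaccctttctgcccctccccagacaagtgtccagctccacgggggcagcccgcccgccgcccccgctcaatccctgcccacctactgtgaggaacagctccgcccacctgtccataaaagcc

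Over 44 upstream windows of the 40 members matched in the RefSeq table, TGGGAA was in 36.4% against 21.6% of all 32851 windows. CGGAAG was in 4.55% against 13.6%, GGAATG in 11.4% against 12.6%, CAGCTG in 15.9% against 13%, AGATAA in 4.55% against 9.99%, TAATTA in 4.55% against 4.84%, and the EBF motif in 0 against 0.779%. These are descriptions of letters; the windows of neighbouring genes overlap in part, and no window stands for a bound site.

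H3K27ac covered the same length of the matrix genes in both genotypes, 124 kb each, but at different genes and places. Of 33 members with a peak, 7 were higher and 15 lower in IKDN, against 21.9% higher and 16.8% lower over all gene names, and the median difference was -694 bp against 119 bp over all gene names. Of 76 member peaks in IKDN, 31 overlapped a WT peak (40.8%; Clopper-Pearson 95% interval 29.6 to 52.7%, counting error only), against 59.6% of all IKDN peaks. Of 67 in WT, 30 overlapped an IKDN peak (44.8%; 32.6 to 57.4%), against 67.9% of all WT peaks. The higher genes included the laminin beta chains Lamb1 and Lamb2, both chains of the common type IV collagen (Col4a1, Col4a2), Col18a1 and Col27a1. The calls of Col18a1 and Col27a1 rest on the names: within the Col18a1 body the direction turned, with 3.12 kb in IKDN and 4.46 kb in WT, and the Col27a1 body had 0.5 kb in IKDN and 0 in WT.

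Lamb1 had 20.1 kb of H3K27ac in IKDN and 0 in WT. Col4a2 had 20.5 kb in IKDN and 1.7 kb in WT, and Col4a1 8.81 kb in IKDN and 0.766 kb in WT. These 3 had from 8.04 to 20.1 kb more in IKDN, and each call remained under every alternative tried. Lamb2 had 3.02 kb in IKDN and 0 in WT by name, and 2.35 kb and 0.842 kb within its body. Of the 7 genes with more H3K27ac, 6 also had more H3K4me1 by name, the exception being Col18a1, the type XVIII collagen of basement membranes. Over all gene names with more H3K27ac, 56.7% also had more H3K4me1. Within the bodies, H3K4me1 was 0.78 kb in IKDN and 0.766 kb in WT at Lamb2, and 0 in both at Col27a1. Across members H3K4me1 was higher at 15 of 36 and lower at 5, against 21.2% and 19.6% over all gene names. H3K4me2 was higher at 13 of 41 and lower at 7, against 15% and 12.9%.

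Lower H3K27ac in IKDN was found mostly at collagens outside the basement membrane. Col26a1, a little-studied collagen first found in testis and ovary, had 1.61 kb in IKDN and 17.4 kb in WT. Col8a1, a network collagen of vessel walls and the cornea, had 1.71 kb in IKDN and 8.3 kb in WT. Col6a6 had 0.91 kb and 6.06 kb by name, and 1.41 kb and 2.38 kb within its body, under the size rule. Col6a3 had 0 in IKDN and 3.77 kb in WT. Col22a1, a collagen of tissue junctions, had 0 and 4.12 kb by name and no H3K27ac within its 355 kb body in either list, so that cover lay outside the gene. Col26a1, Col8a1 and Col22a1 also had less H3K4me1 in IKDN, at 5.43 kb against 18.1 kb, 8.38 kb against 18 kb and 0.5 kb against 6.52 kb in WT; within the Col22a1 body H3K4me1 was 0.5 kb in IKDN and 0.691 kb in WT. Among laminins, Lamb3, a beta chain of epithelial laminin, had 2.19 kb in IKDN and 6.72 kb in WT, Lama4 had 0 and 2.38 kb, and Lama3 had 0.5 kb and 2.3 kb.

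The remaining type I, III and VI chains and laminins had little H3K27ac, with the exception of Lamc1. Col1a1 was lower by name, with 1.16 kb in IKDN and 3.22 kb in WT, and had 1.16 kb and 2.01 kb within its body, under the size rule. Col6a2 was lower, with 1 kb and 2.61 kb. Col3a1 had 0 in IKDN and 0.5 kb in WT, and Col6a1 had 3.89 kb and 3.29 kb. Col1a2, Lama1, Lama2, Lama5 and Lamc3 had no H3K27ac peak in either list. Lamc1 had the most of any member, 25.4 kb in IKDN and 34.1 kb in WT, a difference inside the size rule.

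Lamb1 had marks of transcription along nearly its whole body in IKDN and almost none in WT. The Lamb1 gene (chr12:31265146-31329644, 64.5 kb) was under H3K36me3 over 62.6 kb of its body in IKDN (97.1%) and 0 in WT. RNAPII covered 55.5 kb of it in IKDN (86.1%) and 1.74 kb in WT (2.69%). H3K27ac inside the body came to 16.4 kb in IKDN and 0 in WT. All of the H3K36me3 was 1 peak of 82.7 kb, which began past the start of the gene and ran 20.1 kb beyond its annotated end, where the WT list has peaks named to the neighbour Dld. The H3K4me3 peak at the Lamb1 start stood in the top 24.4% of the IKDN list by score and in the top 73.2% of the WT list.

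**Figure D3:**
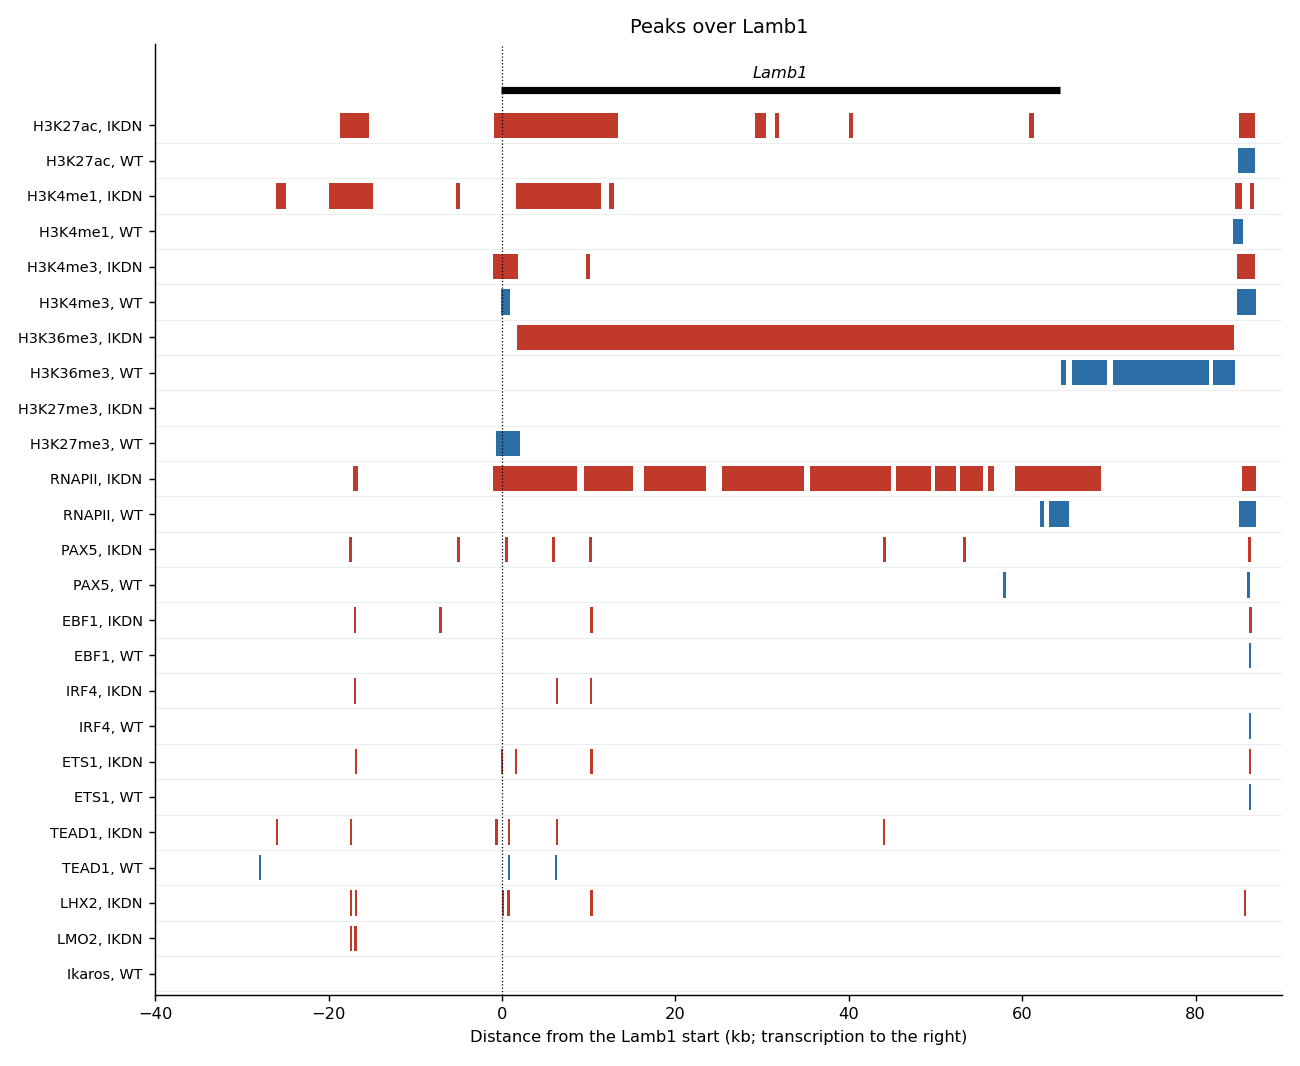
Peaks at Lamb1 by target and genotype (rows; red, IKDN library, above blue, WT library), against the distance in kb from the Lamb1 start on the x axis; the black bar is the annotated gene. H3K36me3 and RNAPII run along the gene in IKDN alone, the WT H3K36me3 peaks begin beyond its end, and the WT H3K27me3 peak at the start has no IKDN counterpart.

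Lamb1 was also where factor peaks gathered in IKDN. Joining peaks up to 500 bp apart, 9 places in IKDN and 3 in WT held a factor peak named to Lamb1. Of these, 4 in IKDN and 0 in WT held at least 3 of the 7 factors mapped in both genotypes. Such places were not counted over all genes. The IKDN lists of EBF1, ETS1, IRF4, PAX5 and TEAD1 hold more peaks than the WT lists, and those of E2A and Aiolos fewer. Counting also LHX2 and LMO2, mapped in IKDN alone, the densest place, 17.2 kb upstream of the start, held E2A, EBF1, ETS1, IRF4, LHX2, LMO2, PAX5 and TEAD1 under IKDN H3K27ac. Another, 10.3 kb inside the gene, held 6 of them. In WT the only factor peaks named to Lamb1 were 3 of TEAD1, against 6 in IKDN. The WT peaks 0.76 and 6.19 kb into the gene each lay within an IKDN place that also holds TEAD1. MED1, a subunit of the Mediator coactivator, had no peak named to Lamb1 in either list, and WT Ikaros had none. The upstream window of Lamb1 holds TGGGAA at 2 places, printed as 30-base sites (GRCm38.p6) with the motif in capitals, 239 and 201 bases before the start.
Lamb1 first site, chr12:31265043-31265072, plus strand: cttgctccactTGGGAAgcgcgcccagaaa
Lamb1 second site, chr12:31265080-31265109, plus strand: gccagcccacgcTGGGAActcaagtaccaa

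By name, H3K36me3 was higher in IKDN at 2 of 18 members with a peak, against 30.5% over all gene names, and lower at 4, against 10.1%. Lamb1 was one of the higher genes; the other, Col6a1, had 19.4 kb in IKDN and 0 in WT, all outside its body. Inside gene bodies, 7 members in IKDN and 5 in WT had at least 1000 bp of H3K36me3. Lamb2 was among the 7: a peak over 87.5% of its 10.7 kb body in IKDN, named to the neighbour Usp19, had no WT counterpart. RNAPII over Lamb2 was 0.359 kb in IKDN and 0.45 kb in WT. Of the alpha chains, which every laminin trimer needs, Lama5 was the one with H3K36me3 in its body. That cover was 2.46 kb in IKDN (4.97% of the body) and 2.3 kb in WT (4.65%), none of it in peaks named to Lama5. The lower genes by name were Col9a2 (11.5 kb in IKDN, 22.1 kb in WT), Col11a2 (5.87 kb and 13.9 kb), Col2a1 (0 and 6.4 kb) and Col8a2 (0 and 2.96 kb); of these, Col11a2 alone had the mark within its body, at 0.756 kb in IKDN and 9.83 kb in WT.

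Lamc1, the gamma chain that pairs with Lamb1 and Lamb2, had the marks of a transcribed gene in both genotypes. H3K36me3 covered 56.2 kb of its 114 kb body in IKDN (49.3%) and 52.3 kb in WT (45.9%). RNAPII differed in covered length, with 6.67 kb in IKDN (5.85%) and 57.2 kb in WT (50.2%). The top-scored RNAPII peak named to Lamc1 ranked alike, in the top 1% of the IKDN list and the top 1.52% of the WT list. It was 1.89 kb wide in IKDN and 10.5 kb in WT. RNAPII peak scores were whole multiples of 0.414 in the IKDN list and of 0.288 in the WT list. H3K27ac in the body was 22.2 kb in IKDN and 27.7 kb in WT. The RNAPII and H3K36me3 values of Lamc1 therefore did not move together.

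RNAPII was higher in IKDN at 5 of 29 members with a peak and lower at 13, against 27.2% higher and 24.8% lower over all gene names. The members' summed RNAPII cover was 121 kb in IKDN and 178 kb in WT, a ratio of 0.681 against 0.835 over all gene names. By name the largest difference was the gain at Lamb1 (41.9 kb in IKDN, 0 in WT), and the largest losses were at Lamc1 (8.58 kb and 43 kb) and Col1a2 (8.49 kb and 36.8 kb). Over the body of Col1a2 (chr6:4505618-4541543, 35.9 kb), RNAPII covered 6.13 kb in IKDN (17.1%) and 34.7 kb in WT (96.5%), mostly as 1 WT peak of 30.8 kb. The Col1a2 body had no H3K36me3 and no H3K27ac in either list. By number of RNAPII peaks named to it the direction turns, with 6 in IKDN and 3 in WT. Its partner Col1a1 had 6.14 kb in IKDN and 8.98 kb in WT over its body, and by name 6.43 kb and 5.44 kb.

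Col4a2 had 7.18 kb of RNAPII in IKDN and 0 in WT. Col5a1 had 0 in IKDN and 3.42 kb in WT, Col17a1, a hemidesmosome collagen, had 0.625 kb and 8.61 kb, and Col2a1 had 3.33 kb and 11.2 kb by name. Within the Col2a1 body RNAPII was 0.467 kb in IKDN and 0 in WT, so nearly all of that cover lay outside the gene. Of the remaining higher genes, Col23a1 had 9.67 kb in IKDN and 4.1 kb in WT by name, yet 1.04 kb and 8.49 kb within its body, and the peak of Col7a1 (3.43 kb in IKDN, 0 in WT) lay outside its gene. Col6a1 had 3.3 kb in IKDN and 0 in WT. Col3a1 had 0 in IKDN and 0.5 kb in WT over its body, and no alpha chain other than Lama5 had RNAPII there. In the Lama5 body RNAPII was 4.08 kb in IKDN and 3.52 kb in WT, none of it in peaks named to Lama5.

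The paired genes Col4a1 and Col4a2 lie head to head on chromosome 8 (chr8:11198423-11312889 and chr8:11312805-11449287) and encode the chains of the type IV collagen found in nearly all basement membranes. Counted together they had 15 H3K27ac peaks over 29.3 kb in IKDN and 3 over 2.47 kb in WT. H3K4me1 covered 74.1 kb in IKDN and 6.51 kb in WT, and H3K4me2 33.8 kb and 6.41 kb. Most of these peaks lay away from the start: 1 of the 15 H3K27ac peaks in IKDN and 1 of the 3 in WT were within 2500 bp of it. At that start H3K4me3 and H3K27me3 were both present in both genotypes, and H3K4me1, H3K4me2 and MED1 in IKDN alone. The H3K27me3 peak over the start was wider in IKDN, at 8.23 kb against 3 kb in WT. By score it stood in the top 2.06% of the IKDN list and the top 9.46% of the WT list. Within the Col4a1 body H3K27me3 covered 9.79 kb in IKDN and 3.15 kb in WT. RNAPII had 3 peaks in IKDN, from 49.6 to 82 kb into Col4a2, and 0 in WT, with none near the start. H3K36me3 was at 0 over the pair in both genotypes.

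**Figure D4:**
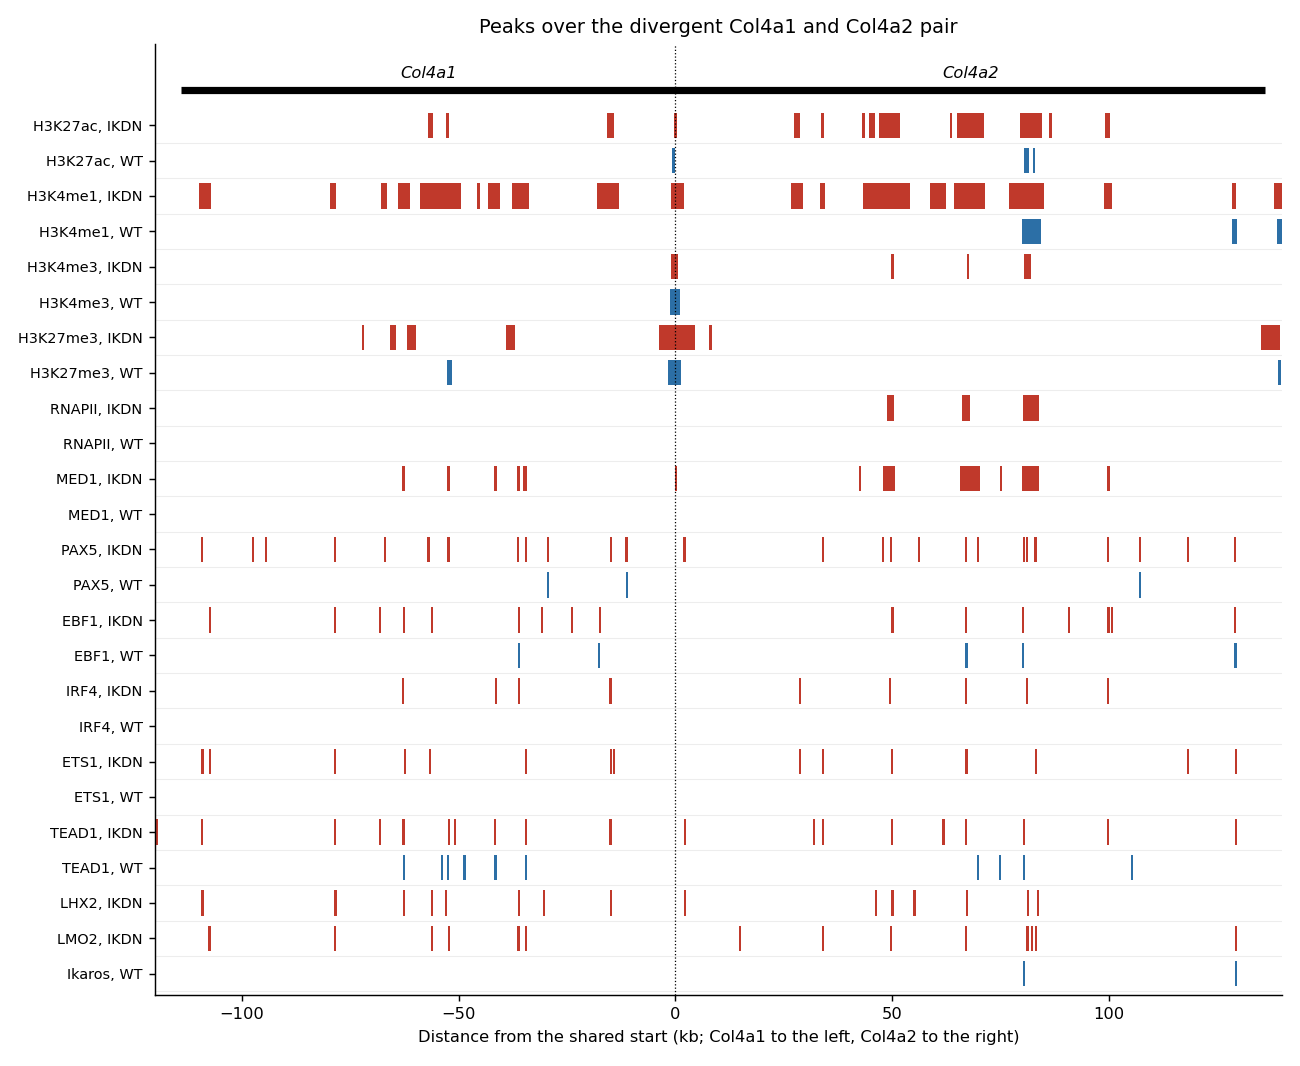
Peaks over the Col4a1 and Col4a2 pair by target and genotype (rows; red, IKDN library, above blue, WT library), against the distance in kb from the shared start on the x axis, with Col4a1 to the left and Col4a2 to the right; black bars are the annotated genes. In IKDN, H3K27ac, MED1, RNAPII and factor peaks stack near 49.6, 66.9 and 80.6 kb inside Col4a2, and H3K4me3 and H3K27me3 lie over the start in both genotypes.

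MED1, PAX5, IRF4, EBF1, ETS1 and TEAD1 each had more peaks over this pair in IKDN. MED1 had 12 peaks in IKDN and 0 in WT, IRF4 had 11 and 0, and ETS1 had 16 and 0. PAX5, the factor that keeps B cell identity, had 26 peaks in IKDN and 4 in WT, EBF1 had 15 and 6, and TEAD1, a factor of the Hippo pathway, had 20 and 10. LHX2 and LMO2, mapped in IKDN alone, had 14 and 13 peaks, and Ikaros, mapped in WT alone, had 1. Joined at 500 bp, the peaks of the 6 factors with a complete list in both genotypes made 39 places in IKDN and 18 in WT. Of these, 15 in IKDN and 0 in WT held at least 3 of the 6, and 9 of the 15 lay under IKDN H3K27ac. Such places were not counted over all genes. IKDN lists are longer for each of these factors but Aiolos, and IKDN peaks are wider for EBF1, IRF4 and TEAD1, so whether this stacking is particular to the pair was not tested. The 2 fullest places, 49.6 and 66.9 kb into Col4a2, held 9 factors each when E2A, LHX2 and LMO2 of IKDN are added. Adding Ikaros of WT gave 1 WT place with 3 (EBF1, Ikaros and TEAD1), 80.1 kb into Col4a2 and beside an IKDN place at 80.6 kb. WT E2A was left out here, since its list is incomplete on chromosome 8.

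Among the other type IV genes, Col4a5 and Col4a6, the paired chains on the X chromosome, had no H3K27ac, RNAPII or MED1 peak in either genotype, and 83.7 kb of H3K27me3 in IKDN against 98 kb in WT. Col4a3, a chain of kidney and lung membranes, had 16.3 kb of H3K27me3 in IKDN and 0.5 kb in WT by name, and 28.8 kb and 10.6 kb within its body. H3K4me1 was higher by name at Col4a6, with 3.23 kb in IKDN and 0 in WT. H3K4me2 was higher by name at Col4a3 (1.13 kb in IKDN, 0 in WT), Col4a5 (3.52 kb and 0.771 kb) and Col4a6 (1.06 kb and 0); within the Col4a5 body it was 1.15 kb and 0.609 kb, under the size rule.

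Lamc1, on chromosome 1, was another laminin gene with many peaks, here in both genotypes. PAX5 had 13 peaks in IKDN and 13 in WT, and EBF1 had 6 and 7. MED1 had 5 peaks in IKDN and 3 in WT, IRF4 had 9 and 4, ETS1 10 and 5, TEAD1 6 and 4, while E2A had 6 and 9. WT Ikaros had 10 peaks there, and IKDN LHX2 had 10. Col26a1, the collagen with the largest H3K27ac deficit, had 0 IRF4 peaks in IKDN and 3 in WT, 1 ETS1 peak and 6, and 5 EBF1 peaks and 6; WT Ikaros had 7 peaks at it, and IKDN LHX2 had 0.

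**Figure D5:**
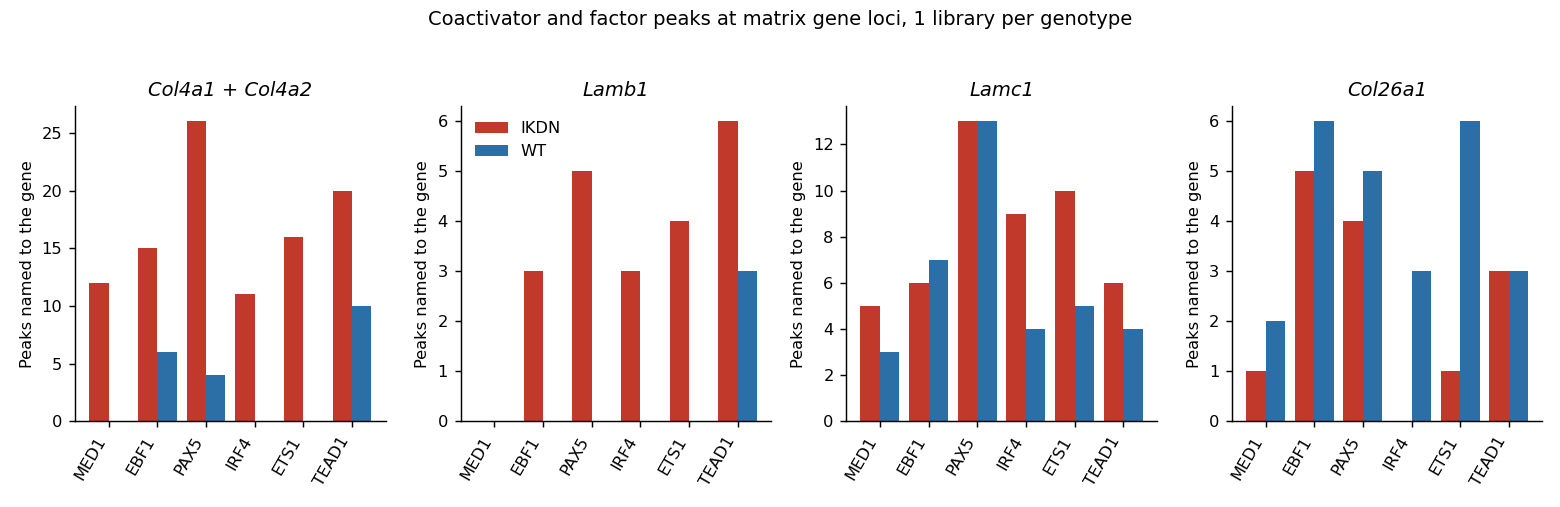
Number of peaks (y axes, 1 scale per panel, from 0) of MED1 and 5 factors named to Col4a1 and Col4a2, to Lamb1, to Lamc1, and to Col26a1; red bars are the IKDN library, blue bars the WT library. Bars are higher in IKDN in every filled pair at the first 2 loci, equal or close for PAX5 and EBF1 at Lamc1, and not higher in IKDN for any of the 6 at Col26a1.

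Over all members, factor peaks are best read by number, since peak width is fixed within a list and differs between genotypes (TEAD1 276 bp in IKDN and 176 bp in WT). A gene is counted here as higher with at least 1 peak more and 1.5 times as many, and covered length is given after. TEAD1 had 152 member peaks in IKDN and 159 in WT, a ratio of 0.956, although the IKDN list is longer and the ratio over all gene names is 1.43. By number, 19 of 52 members were higher and 17 lower for TEAD1, against 49.1% and 19.9% over all gene names. The groups of collagens parted: fibrillar collagens had 19 TEAD1 peaks in IKDN and 51 in WT, network collagens 34 and 22, and transmembrane collagens 16 and 1. Col11a1 had 2 TEAD1 peaks in IKDN and 10 in WT, Col5a2 had 1 and 8, Col5a1 had 2 and 8, and Col1a2 had 4 and 9. Col25a1 had 7 in IKDN and 0 in WT. Among the network collagens Col4a1 had 13 and 3, and Col4a2 had 7 in both, so the network difference lay largely at Col4a1. Col11a1, Col5a2, Col5a1 and Col1a2 are also among the genes with less H3K4me3 in IKDN. At the other genes with less H3K4me3, TEAD1 peaks were fewer in IKDN at Col1a1, Col6a2 and Col6a3. They were equal in number at Col2a1, Col6a1 and Col26a1, and more in IKDN at Col12a1. How often the 2 go together over all gene names was not counted.

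IRF4, a factor of B cell maturation, had 59 member peaks in IKDN and 26 in WT, and was higher by number at 17 of 29 members and lower at 5, against 52.8% and 14.9% over all gene names. Of the 11 fibrillar collagens, 0 had an IRF4 peak in either list, and the 9 network collagens had 17 in IKDN and 0 in WT. Most of the 17 were at 1 locus, with 7 named to Col4a1 and 4 to Col4a2. PAX5 had 272 member peaks in IKDN and 212 in WT; 19 of 47 members were higher and 6 lower by number, against 28.4% and 11.6%. EBF1 had 124 peaks in IKDN and 98 in WT, with 16 of 45 higher and 6 lower, against 40.1% and 17.8%. ETS1 had 71 and 47, with 12 of 34 higher and 10 lower, against 43.5% and 14.8%; E2A had 21 and 39, with 3 of 19 higher and 12 lower, against 14.3% and 60.7%. The labels give the IKDN and WT libraries of E2A and of ETS1 different antibody numbers; 1 number stands for WT E2A, IKDN ETS1 and IKDN LHX2, and another for IKDN E2A and for IRF4 and PAX5 in both genotypes, so the E2A, IRF4, PAX5, ETS1 and LHX2 values rest on the target names. MED1 had 36 peaks in IKDN and 14 in WT, with 14 of 21 members higher and 6 lower, against 58.9% and 11.3%. The network collagens held 13 and 0 of these, the laminins 13 and 4, and the fibrillar collagens 1 and 4. Of the 13 at network collagens in IKDN, 6 were named to Col4a1 and 6 to Col4a2. Aiolos had 3 peaks in IKDN and 5 in WT, at 5 members.

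By covered length, Col4a1 was the gene most often past the 1000 bp rule, higher in IKDN for MED1, TEAD1, PAX5, IRF4, EBF1 and ETS1. It was the 1 higher member for EBF1, against 4.54% higher and 0.141% lower over all gene names, and the 1 higher for ETS1, against 1.93% and 0.0936%; no member was lower for either. IRF4 was higher at Col4a1 and Lamc1 and lower at none, against 4.6% and 0.0842%. PAX5 was higher at 6 members, among them Col4a1, Col4a2, Col25a1 and Lamb1, and lower at Lama4 and Col28a1, against 5.25% and 1.8%. TEAD1 was higher at 7 members, among them Col25a1, Col4a1 and Lamb1, and lower at Col11a1 and Col5a2, against 11.5% and 0.296%. MED1 was higher at 7 members, among them Col4a2 and Col4a1, and lower at Col3a1 and Col26a1, against 43.1% and 2.93%. E2A was lower at Lama3 and higher at none, against 2.22% lower and 0.384% higher, and Aiolos passed the rule at no member, against 0.109% higher and 0.191% lower.

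At the 45 member H3K27ac peaks found in IKDN alone, PAX5 of IKDN was present at 20 of the 43 on chromosomes complete in its list (46.5%), against 36.1% of all H3K27ac peaks found in IKDN alone. ETS1 was at 13 (28.9%, against 24%), TEAD1 at 13 (28.9%, against 27.7%), IRF4 at 11 (24.4%, against 20.3%) and LHX2 at 8 (17.8%, against 18.7%). At the 37 found in WT alone, WT Ikaros was present at 9 (24.3%, against 31.4% of all such peaks) and WT PAX5 at 7 (18.9%, against 32.4%). Among factors mapped in 1 genotype, Ikaros had 83 peaks at 28 members in WT, LHX2 had 68 at 22 in IKDN, and LMO2 had 41 at 17 in IKDN. These have no counterpart in the other genotype and were not compared.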

How the data were processed

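Per the file headers, each deposited peak list gives 1 line per peak with its position in base pairs, a peak score, the distance to the nearest transcription start site and a gene name; the tools listed without a role in the submitters' processing notes are HOMER, STAR, BWA and bcl2fastq 1.8.3, and the builds are mm9 and mm10. The deposited score of a peak has no stated scale and was used only to rank peaks within a list and in 2 alternatives; positions and distances, other values in base pairs, were used as deposited. Of 31266 start sites implied by positions and distances, 99.1% lay within 1000 bp of the same gene in RefSeq GRCm38.p6, so coordinates are given as mm10. Peak calling thresholds are not given in the sources used here, and reads, depth and the 2 input libraries were not used here.

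Overlapping peaks of a gene were merged and their length summed per gene and target (python 3.11.15, pandas 2.3.3, numpy 2.4.6; intervals with scipy 1.17.1; figures with matplotlib 3.10.9); the steps were tested on simulated lists. Of 23592 gene IDs, 265 carried several names across lists and were unified; none was a collagen or laminin gene. A comparison used only chromosomes complete in both lists, judged by a last peak within 10 Mb of the end seen in the other lists: WT E2A was incomplete on chromosomes 2, 3, 4, 5, 6, 7, 8, 9 and X, WT ETS1 on chromosome 2 and IKDN PAX5 on chromosomes 9 and X. Named genes were, per mark, up to 5 members with the largest gain and up to 5 with the largest loss among those past the size rule (up to 3 per factor), plus Col1a1, Col1a2, Col3a1, Col4a1, Col4a2, Col6a1, Col6a2 and the laminins for H3K27ac, H3K27me3, H3K36me3 and RNAPII; genes named at start sites, in gene bodies and for TEAD1 were chosen after their values were seen, and 1 gene is not reported here. The members and all gene lists were chosen with earlier results of these data known. Alternatives counted whatever peaks lie in a gene or in the flanking 10 kb, peak numbers, summed scores, the top-scored 50% of each list, equal peak numbers, a minimum difference of 500 bp, all chromosomes and names without Col4a3bp; peaks set to 200 bp, Col4a1 with Col4a2 as 1 gene and a 500 bp window at start sites were added after seeing the data.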

Additional observations from a re-analysis of the deposited data

How the results depend on the processing

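No paired analysis was possible because each genotype had 1 library per target. Values here are members higher minus members lower in IKDN. Counting whatever lies in a gene or its 10 kb flanks moved H3K27ac to -5 (reported, -8), H3K4me1 to 6 (10), H3K36me3 to 2 (-2), MED1 to 10 (5), EBF1 to 3 (1) and ETS1 to 3 (1). Peak numbers gave H3K27ac -3, H3K36me3 1, H3K27me3 12 (21), RNAPII -4 (-8), MED1 8, PAX5 13 (4), IRF4 12 (2), EBF1 10, ETS1 2, TEAD1 2 (5), E2A -9 (-1) and Aiolos -3 (0). The top-scored 50% of each list gave H3K27ac -4, H3K4me1 6, H3K4me2 0 (6), H3K4me3 0 (-8), RNAPII -4, MED1 3, E2A 0, PAX5 2, IRF4 0, ETS1 0 and TEAD1 3. A minimum of 500 bp gave H3K27ac -5, H3K4me2 10, H3K4me3 -13, MED1 8, E2A 0, EBF1 9, PAX5 9, IRF4 7, ETS1 4 and TEAD1 10. Summed scores gave H3K4me1 6, H3K4me2 0, H3K4me3 1, H3K36me3 -1, MED1 8, E2A -9, EBF1 21, PAX5 15, IRF4 12, ETS1 7 and Aiolos -2. Equal peak numbers gave MED1 2, IRF4 0, ETS1 0 and TEAD1 -2; peaks of 200 bp gave TEAD1 -3, and all chromosomes gave PAX5 0. The direction thus turned for H3K4me3 (1), H3K36me3 (2 and 1) and TEAD1 (-2 and -3), and the cause was not tested. A reciprocal overlap of 50% lowered the shared H3K27ac peaks to 15.8% in IKDN and 19.4% in WT, and the top-scored 50% raised the WT share to 60%. Of 164 calls of single genes, 73 stood in every alternative and 2 reversed, those of RNAPII at Col1a2 and Col2a1, each to a call of 1 (higher) by peak number. Of the calls, 24 of 33 stood for H3K27me3, 11 of 22 for H3K27ac, 9 of 18 for RNAPII and 1 of 14 for H3K4me3.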

Other observations

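The receptors through which cells hold collagen and laminin had more H3K27ac and H3K36me3 in IKDN, but not more H3K4me3 or RNAPII. Of 18 receptor genes, 14 had an H3K27ac peak, and 6 of these were higher and 1 lower, against 21.9% and 16.8% of all gene names with a peak. Of the 12 with H3K36me3, 7 were higher and 0 lower, against 30.5% and 10.1%. For H3K4me3, 1 of 16 was higher and 2 lower, against 5.13% and 10.8%, and for RNAPII 2 of 11 were higher and 1 lower, against 27.2% and 24.8%, with 119 kb in IKDN and 122 kb in WT. Itga6, the alpha chain of the laminin integrins, had 17.5 kb of H3K27ac in IKDN and 7.72 kb in WT, and 9.36 kb of H3K36me3 in IKDN and 1.14 kb in WT. Itga1, a collagen integrin chain, had 17.7 kb of H3K27ac in IKDN and 2.3 kb in WT. Itga2, another collagen integrin chain, had 30.2 kb of H3K36me3 in IKDN and 0 in WT. Itgb1, the beta chain these share, had 16.7 kb of H3K27ac in IKDN and 8.2 kb in WT. Lair1, an inhibitory collagen receptor of leukocytes, was the lower gene for H3K27ac, with 2.63 kb in IKDN and 4.94 kb in WT.

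Of 16 matrix proteases and their inhibitors, 12 had an H3K27ac peak, with 6 higher and 1 lower, and 6 had an H3K36me3 peak, with 4 higher and 0 lower; the shares over all gene names are those given above. Timp3, an inhibitor that binds to the matrix, had 8.69 kb of H3K27ac in IKDN and 0 in WT, and Mmp14, a membrane-bound collagenase, had 10.2 kb of H3K36me3 in IKDN and 1.07 kb in WT. Mmp8, the collagenase of neutrophils, had 3.12 kb of H3K27ac in IKDN and 10.5 kb in WT. Of 23 genes that modify and assemble collagen, 19 had an H3K27ac peak, with 2 higher (all gene names, 21.9%) and 1 lower (16.8%). Of 18 partners of collagen and laminin, 11 had one, with 3 higher and 1 lower; Hspg2, the basement membrane proteoglycan perlecan, had 5.48 kb in IKDN and 0.835 kb in WT, and Fn1, fibronectin, had 65.7 kb of H3K36me3 in IKDN and 0 in WT.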
